A study of Homo sapiens with 8 samples.

Results

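The genes described here are 50 genes of the unfolded protein response and of the ATF4 stress program, taken from a list of symbols: sensors of misfolded protein, kinases and phosphatase subunits acting on the translation factor eIF2, transcription factors, their target genes, and chaperones and degradation factors of the endoplasmic reticulum (ER). A gene was included through every noncontrol probe of the arrays whose RefSeq accession belongs to a listed symbol. This gave 58 probes for 49 of the 50 genes, out of 58201 probes for 47753 genes, and no probe was matched to ERO1A. Of the 49 genes, 46 had a probe that exceeded background clearly in every array of sictrl or of siUCA1 and were tested, and ALDH1L2, ERN1 and STC2 had none.

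The RNA came from OAW42-R cells, a cisplatin-resistant derivative of the serous ovarian cancer line OAW42, transfected by INTERFERin with a pool of nontargeting siRNAs (sictrl) or with the siRNAs numbered 2 and 4 against the long noncoding RNA UCA1 (siUCA1), at 20 nM in both. Each condition had 4 one-color 8x60k arrays, named A1, M2, A2 and A3 in both, from 4 independent experiments, and RNA was extracted 24 h after transfection according to the labels and later according to the methods of the study. All arrays were of a single resistant line, without cisplatin and without untransfected cells. The comparison asks which transcripts changed when UCA1 was silenced.

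Misfolded protein in the ER is sensed by PERK (gene EIF2AK3), IRE1 (ERN1) and ATF6. IRE1 splices the mRNA of the transcription factor XBP1, ATF6 is released as a transcription factor by cleavage, and both turn on chaperones and degradation factors, whereas PERK and GCN2 (EIF2AK4), which senses lack of amino acids, phosphorylate eIF2 and thereby raise translation of ATF4. ATF4 turns on genes of amino acid supply and the factor CHOP (DDIT3), which can induce death genes such as BIM (BCL2L11) and PUMA (BBC3). Splicing, cleavage, phosphorylation and translation were not measured on these arrays, which give the level of transcripts.

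The promoters of these genes carry known elements, and the sequences that hold them are shown because 4 of the 5 chaperone genes that were higher in siUCA1 hold the first of them, as do 3 of the 7 called higher when 2 arrays that stood apart are left out. RefSeq windows of GRCh38.p14, from 250 bases before to 50 bases after a transcription start, were held for 45 of the 50 genes, and those of NUPR1, PSPH, SHMT2, ALDH1L2 and PDIA3 were missing. PDIA3 is among the 7 chaperones called without the 2 arrays and so was not searched. The ER stress element (ERSE), searched on both strands as CCAAT and CCACG with 9 free bases between them, was in the windows of 7 of these 45 genes (15.6%), against 0.0916% of the 27305 genes with a window. Among the 14 listed ER chaperones and folding enzymes with a window, called or not, it was in 6 (42.9%). The fixed letters of the element are in capitals, with up to 20 bases on each side, and every sequence runs 5′ to 3′ on the strand of its gene.

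CALR, chr19:12938364-12938422, plus strand: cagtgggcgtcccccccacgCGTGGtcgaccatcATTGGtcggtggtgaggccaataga
HSP90B1, chr12:103930196-103930254, plus strand: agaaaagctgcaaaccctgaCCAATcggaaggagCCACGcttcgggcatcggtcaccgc
HSP90B1, chr12:103930301-103930359, plus strand: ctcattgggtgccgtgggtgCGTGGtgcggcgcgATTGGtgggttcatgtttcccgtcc
PDIA6, chr2:10812833-10812891, minus strand: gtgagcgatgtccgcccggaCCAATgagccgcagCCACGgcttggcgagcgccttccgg
CRELD2, chr22:49918534-49918592, plus strand: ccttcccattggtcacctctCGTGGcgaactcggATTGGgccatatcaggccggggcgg
HSPA5, chr9:125241371-125241429, minus strand: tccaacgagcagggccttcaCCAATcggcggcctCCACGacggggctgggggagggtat
XBP1, chr22:28800583-28800641, minus strand: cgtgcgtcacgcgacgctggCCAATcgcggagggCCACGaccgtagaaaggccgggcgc
CANX, chr5:179698758-179698816, plus strand: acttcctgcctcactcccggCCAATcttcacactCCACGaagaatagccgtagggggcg

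CALR, HSP90B1, PDIA6 and CRELD2 were higher in siUCA1, whereas HSPA5, XBP1 and CANX did not pass the test. HSP90B1 held the element at 2 places, and CALR, CRELD2 and the second place of HSP90B1 held it on the opposite strand. The amino acid response element bound by ATF4 with C/EBP proteins (CARE), searched as TGATGNAA on both strands, was found in 8 of the 45 genes (17.8%) and in 4.46% of all genes with a window. None of these 8 genes was called over the 8 arrays (11.6% of all genes were), and 5 were called without the 2 arrays described below as standing apart (25.6% of all genes). The sequences of the 6 that hold the element before the start are shown in the same way.

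CHAC1, chr15:40953242-40953289, plus strand: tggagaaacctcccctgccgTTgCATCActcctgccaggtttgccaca
ASNS, chr7:97872449-97872496, minus strand: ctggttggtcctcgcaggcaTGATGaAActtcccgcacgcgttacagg
SLC1A5, chr19:46784884-46784931, minus strand: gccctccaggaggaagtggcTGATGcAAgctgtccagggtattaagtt
CEBPG, chr19:33374051-33374098, plus strand: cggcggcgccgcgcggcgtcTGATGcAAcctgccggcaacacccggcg
PPP1R15B, chr1:204412017-204412064, minus strand: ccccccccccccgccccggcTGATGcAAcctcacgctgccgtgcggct
HERPUD1, chr16:56931946-56931993, plus strand: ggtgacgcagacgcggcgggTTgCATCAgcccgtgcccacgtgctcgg

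A match of letters is a description of the window and says nothing of whether a factor was bound in these cells.

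UCA1, the target of the siRNAs, fell by 5.04 on the log2 scale (limma, adjusted p = 0.000122), with levels between 7.48 and 8.60 on the sictrl arrays and between 2.59 and 3.68 on the siUCA1 arrays. Levels here and below are log2 intensities relative to the 75th percentile of the same array, and they are compared between arrays for one probe and never between probes. Over all genes, 1788 of 15456 had an adjusted p under 0.05 (11.6%), here "called", of which 884 were higher (5.72%) and 904 lower (5.85%) in siUCA1. Of these 15456, 11996 had a RefSeq symbol, as every listed gene has. The rest were counted as genes under the accession or name given on the array, and the shares over all genes include them. With the median of the spots in place of the 75th percentile, the share of higher genes among the called was 21.3%, against 49.4%, and the median spot lay at an intensity of 5.50 to 7.37, where the 75th percentile lay at 106 to 135. Sictrl A3 and siUCA1 A1 stood apart, with a fitted brightness trend over the array surface of 0.321 and 0.287 (root mean square) against 0.0737 to 0.0943 on the other 6 arrays, so that counts and values are also given without them. The cells showed the epithelial and ovarian markers EPCAM, KRT8, KRT18, KRT19, PAX8 and CDH1 above background, whereas MUC16, WT1 and all 5 fibroblast markers did not reach the detection rule. Of the 6 tested, with a median log2 fold change of 0.04, CDH1, or E-cadherin, was called lower (-0.81, limma, adjusted p = 0.0149) and EPCAM was at 0.50 (adjusted p = 0.0675). The leukocyte markers PTPRC and CD3E did not reach the rule, CD68 had no probe matched by accession, and CD14 was called higher by 0.70 (adjusted p = 0.0478), from between -1.22 and -0.79 in sictrl to between -0.73 and 0.14 in siUCA1. The endothelial markers PECAM1 and CDH5 did not reach the rule and VWF did not pass the test. The part of these markers in the results below was not tested.

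Silencing of UCA1 was accompanied by changes in both directions among the stress genes, measured in RNA of whole cultures, where fewer cells of a kind and less RNA per cell cannot be told apart. Of the 46 genes tested, 12 were called (26.1%, against 11.6% of all genes): DNAJB9, CRELD2, CALR, HSP90B1, PDIA6, VLDLR and PSPH were higher, and SLC7A5, DDIT4, SHMT2, ATF5 and NUPR1 were lower. The 7 higher genes were 15.2% of the tested stress genes (5.72% of all genes), and the 5 lower ones 10.9% (5.85% of all genes). The 4 arrays of one condition did not overlap those of the other for 19 of the 46 genes, 11 higher and 8 lower, where this held for 20.9% of all genes. The median log2 fold change over the 46 genes was 0.13 (0.03 over all genes) and the median absolute change 0.35 (0.20 over all genes). Without sictrl A3 and siUCA1 A1, 22 stress genes were called (47.8%, against 25.6% of all genes), with 12 higher and 10 lower.

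**Figure D1:**
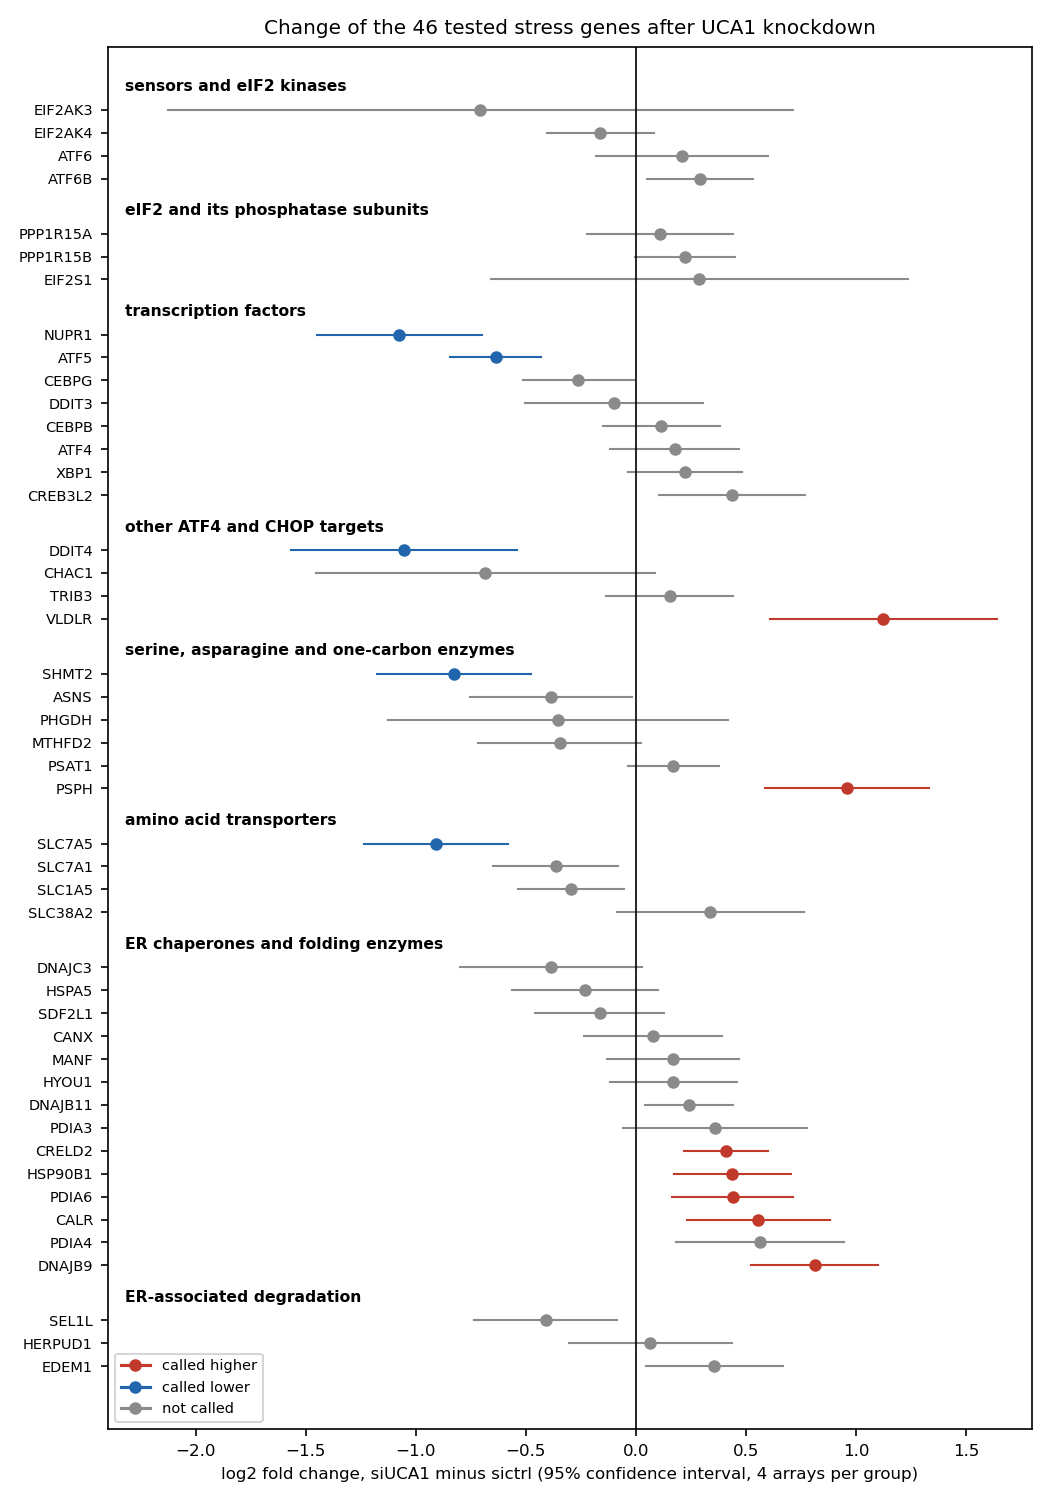
Log2 fold change of each of the 46 tested genes (horizontal axis, siUCA1 minus sictrl, with the 95% confidence interval of limma), grouped by role, with 4 arrays per condition. The 7 genes called higher include 5 of the 14 ER chaperones and folding enzymes, and the 5 genes called lower lie among the transcription factors, targets, enzymes and transporters, between -1.07 and -0.64.

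Over the 8 arrays, ATF4, XBP1, DDIT3, HSPA5 and the listed sensors and eIF2 kinases that were tested did not pass the test at the transcript level. The sensor gene ERN1 was not tested, and EIF2AK1, an eIF2 kinase outside the list, was called lower, as given below. ATF4, the factor whose translation rises when eIF2 is phosphorylated, was at 7.98, 7.81, 7.99 and 7.60 on the sictrl arrays A1, M2, A2 and A3 and at 8.27, 7.88, 8.03 and 7.92 on the siUCA1 arrays in the same order. The conditions overlapped, and the log2 fold change was 0.18 with a 95% confidence interval from -0.12 to 0.47 (limma, adjusted p = 0.419). XBP1, the target of IRE1, was at 5.37, 5.56, 5.59 and 5.63 in sictrl and at 5.98, 5.75, 5.75 and 5.56 in siUCA1, so that siUCA1 A3 lay among the sictrl arrays. Its log2 fold change was 0.22 (-0.03 to 0.48, adjusted p = 0.241). One probe covers each of these transcripts here, and the spliced and unspliced forms of XBP1 were not told apart.

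DDIT3, which encodes CHOP, was at -0.19, 0.07, 0.03 and 0.10 in sictrl and at 0.45, -0.28, -0.28 and -0.30 in siUCA1. The M2, A2 and A3 siUCA1 arrays were below all sictrl arrays and siUCA1 A1 was above all of them, and the log2 fold change was -0.10 (-0.51 to 0.30, adjusted p = 0.765). Without siUCA1 A1 and sictrl A3 it was -0.25 (-0.48 to -0.03, adjusted p = 0.0906). HSPA5, the ER chaperone BiP that holds the sensors inactive, was at 2.25, 2.50, 2.37 and 2.87 in sictrl and at 2.19, 2.16, 2.24 and 2.47 in siUCA1, with overlap of the conditions. Its log2 fold change was -0.23 (-0.56 to 0.10, adjusted p = 0.346).

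None of the 4 tested sensors and eIF2 kinases was called, where 11.6% of all genes were (EIF2AK3, EIF2AK4, ATF6 and ATF6B, from -0.71 to 0.29 on the log2 scale), and ATF6B was the 1 of them with an unadjusted p under 0.05 in limma, as had 4263 of all 15456 genes. EIF2AK3, which gave the -0.71, was well above background on 4 sictrl arrays and only 2 siUCA1 arrays, and its value on siUCA1 A1 (-4.56) lay under the detection limit of that array (-3.07), so that its fold change is not exact. ATF6 was at 0.21 over all arrays (adjusted p = 0.475) and was called over the 6 arrays, at 0.39 (adjusted p = 0.0325). ATF6B, the paralog of ATF6, was at 0.29 without overlap of the conditions (adjusted p = 0.115). None of EIF2S1, the regulated subunit of eIF2, and PPP1R15A and PPP1R15B, which direct the phosphatase to it, was called or had an unadjusted p under 0.05 (log2 fold changes from 0.11 to 0.29). EIF2S1 was at -0.27 on sictrl A3 and 0.52 on siUCA1 A1 and between 1.35 and 1.60 on the other 6 arrays.

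Of the 8 transcription factors, ATF5 and NUPR1 were called, both lower (25%, against 5.85% of all genes called lower). ATF5, a relative of ATF4 that is itself translated under eIF2 phosphorylation, was at 1.43, 1.16, 1.38 and 1.36 in sictrl and at 0.73, 0.69, 0.67 and 0.69 in siUCA1. The siUCA1 arrays lay close together and below every sictrl array, and ATF5 fell by 0.64 (limma, adjusted p = 0.00497), a level 1.55-fold lower. NUPR1, a small stress-induced regulator of chromatin and transcription, was at 4.98, 5.24, 5.49 and 5.63 in sictrl and at 4.47, 4.02, 4.16 and 4.40 in siUCA1. Again the conditions did not overlap, and NUPR1 fell by 1.07 (95% confidence interval -1.45 to -0.70, adjusted p = 0.00656). The others were not called, with CREB3L2, an ER-anchored factor, at 0.44 (adjusted p = 0.0907) and CEBPG, a partner of ATF4, at -0.26. Without sictrl A3 and siUCA1 A1, where 25.6% of all genes were called, both of these were, at 0.52 (adjusted p = 0.0135) and -0.36 (adjusted p = 0.0335). A second CREB3L2 probe was at 0.08 over the 8 arrays and was not called (limma, adjusted p over all probes = 0.647).

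**Figure D2:**
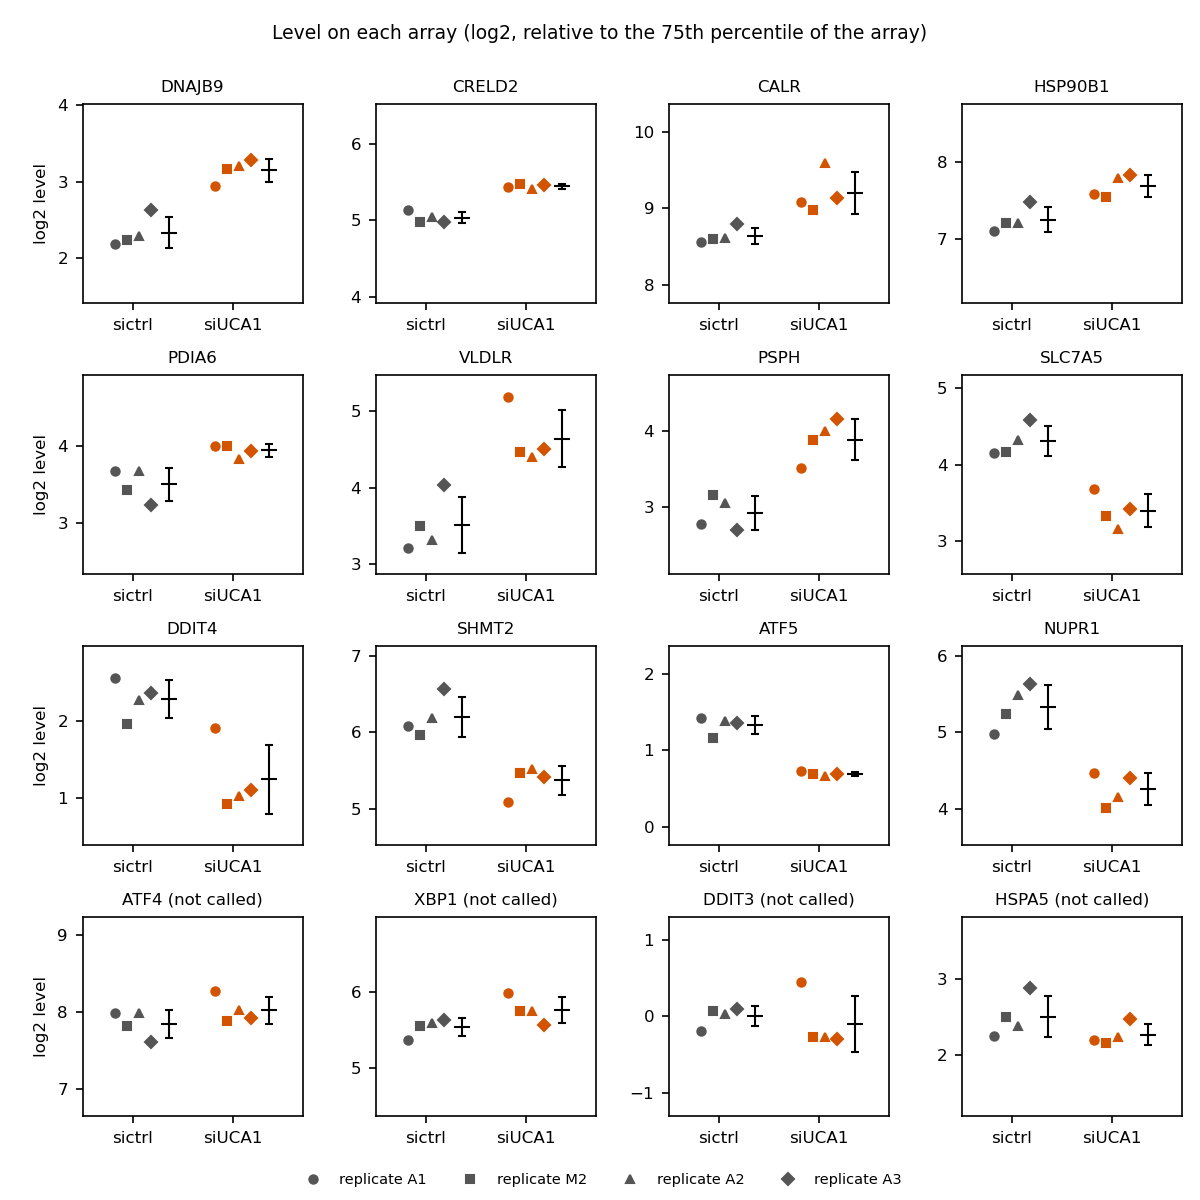
Level on each array (vertical axis, log2 intensity relative to the 75th percentile of the array) of the 12 called genes and of ATF4, XBP1, DDIT3 and HSPA5, for sictrl and siUCA1, with a marker for each replicate and the mean ± SD (n = 4) in black. Each panel spans the same range of log2 units around its own center. The conditions do not overlap in the first 12 panels and overlap in the last 4, where siUCA1 A1 stands above the rest for DDIT3 (0.45).

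Among the targets of ATF4 and CHOP, DDIT4 was lower and VLDLR higher. DDIT4, also named REDD1, an inhibitor of the mTORC1 kinase, was at 2.57, 1.97, 2.27 and 2.37 in sictrl and at 1.91, 0.93, 1.03 and 1.11 in siUCA1. siUCA1 A1 came close to the sictrl arrays and the other 3 lay well below, and DDIT4 fell by 1.05 (limma, adjusted p = 0.0208). VLDLR, a lipoprotein receptor that ATF4 can induce, was at 3.21, 3.49, 3.32 and 4.04 in sictrl and at 5.19, 4.47, 4.40 and 4.50 in siUCA1. Sictrl A3 and siUCA1 A1 were each the highest of their condition, there was no overlap, and VLDLR was higher by 1.12 (0.61 to 1.64, adjusted p = 0.0169), which is 2.18-fold. A second VLDLR probe rose by 1.05 (adjusted p over all probes = 0.00284).

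CHAC1, which degrades glutathione and is a target of ATF4 and CHOP, was at 2.79, 2.53, 2.62 and 1.42 in sictrl and at 2.39, 1.50, 1.50 and 1.23 in siUCA1. Sictrl A3 lay with the low siUCA1 arrays and siUCA1 A1 with the sictrl arrays. CHAC1 was not called over all 8 arrays (log2 fold change -0.68, -1.45 to 0.09, adjusted p = 0.230), whereas over the 6 arrays without these 2 it fell by 1.24 (adjusted p = 0.00152). TRIB3, a pseudokinase that CHOP and ATF4 induce, was at 0.15 over all arrays and at -0.01 over the 6 arrays, and was not called in either.

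The enzymes of serine, asparagine and one-carbon metabolism, many of which ATF4 induces, did not move as one. PSPH, which makes serine in the last step of its synthesis, was at 2.78, 3.16, 3.06 and 2.69 in sictrl and at 3.51, 3.88, 3.99 and 4.15 in siUCA1. Every siUCA1 array was above every sictrl array, and PSPH rose by 0.96 (limma, adjusted p = 0.00922), 1.94-fold. SHMT2, the mitochondrial enzyme that turns serine into glycine and a one-carbon unit, was at 6.08, 5.96, 6.19 and 6.56 in sictrl and at 5.09, 5.47, 5.52 and 5.41 in siUCA1. It fell by 0.83 without overlap (adjusted p = 0.0125).

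PHGDH and PSAT1, which act before PSPH in serine synthesis, had log2 fold changes of -0.35 and 0.17 and were not called, nor were ASNS, which makes asparagine, at -0.39 (adjusted p = 0.162) and MTHFD2, the next mitochondrial folate enzyme, at -0.35 (adjusted p = 0.210). MTHFD2 was at 3.38 on siUCA1 A1 and between 2.75 and 2.77 on the other siUCA1 arrays, and without sictrl A3 and siUCA1 A1 it fell by 0.58 (adjusted p = 0.00366). RefSeq lists a pseudogene of PSPH, and its share in the signal of the PSPH probe was not tested.

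Of the 4 amino acid transporters, SLC7A5 was called (25%, against 11.6% of all genes). SLC7A5, which imports leucine and other large neutral amino acids, was at 4.15, 4.17, 4.33 and 4.59 in sictrl and at 3.68, 3.33, 3.16 and 3.43 in siUCA1. The conditions did not overlap, and SLC7A5 fell by 0.91 (limma, 95% confidence interval -1.23 to -0.58, adjusted p = 0.00724), 1.88-fold. SLC7A1, the importer of arginine and lysine, and SLC1A5, the importer of glutamine, had log2 fold changes of -0.36 and -0.29 without overlap of the conditions, and neither was called over 8 arrays (adjusted p = 0.0978 and 0.112). SLC38A2, which carries small neutral amino acids, was at 0.34 (adjusted p = 0.282). Without sictrl A3 and siUCA1 A1 all 3 were called, at -0.46, -0.39 and 0.49 (25.6% of all genes were called there).

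Of the 14 ER chaperones and folding enzymes tested, 5 were called (35.7%), all higher, where 5.72% of all genes were called higher. The median log2 fold change of the 14 was 0.30 (0.03 over all genes), and 11 of them were above 0, as were 8369 of all 15456 genes. The count of called chaperones varied with the processing. It was 0 with median scaling (3.46% of all genes called), 1 with normexp background correction (2.46%) and 2 with the slide row as a block (8.22%). Without sictrl A3 and siUCA1 A1 it was 7 (25.6%), and with array weights 9, of which 1 was lower (31.1%). DNAJB9, or ERdj4, a cochaperone of BiP that targets misfolded proteins for degradation, was at 2.18, 2.24, 2.28 and 2.62 in sictrl and at 2.94, 3.17, 3.20 and 3.28 in siUCA1. The lowest siUCA1 array lay above the highest sictrl array, and DNAJB9 rose by 0.81 (limma, adjusted p = 0.00692), 1.76-fold. CRELD2, a secreted ER protein with disulfide isomerase activity, was at 5.14, 4.98, 5.05 and 4.98 in sictrl and at 5.43, 5.48, 5.41 and 5.46 in siUCA1. The spread within each condition was small, and CRELD2 rose by 0.41 (adjusted p = 0.0174), 1.33-fold.

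CALR, the lectin chaperone calreticulin that retains glycoproteins until they fold, was at 8.56, 8.60, 8.61 and 8.80 in sictrl and at 9.08, 8.98, 9.60 and 9.14 in siUCA1. HSP90B1, the ER member GRP94 of the HSP90 chaperones, was at 7.10, 7.21, 7.21 and 7.48 in sictrl and at 7.58, 7.54, 7.80 and 7.83 in siUCA1. PDIA6, a protein disulfide isomerase, was at 3.68, 3.43, 3.67 and 3.23 in sictrl and at 4.00, 4.00, 3.83 and 3.94 in siUCA1. None of the 3 overlapped between conditions, and the gap between them was smaller than for DNAJB9. Their log2 fold changes were 0.56, 0.44 and 0.44 (limma, adjusted p = 0.0396, 0.0452 and 0.0492), so that all 3 lay just within the threshold. A second HSP90B1 probe was at 0.28 and was not called (adjusted p over all probes = 0.226). RefSeq lists pseudogenes of HSP90B1 and of HSPA5, whose share in the signals was not tested.

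The other 9 chaperones lay between -0.38 and 0.57 and were not called. PDIA4, another disulfide isomerase, was at 0.57 (adjusted p = 0.0644), with sictrl A3 at 3.66 and the remaining 3 of its condition between 3.01 and 3.07. Over the 6 arrays, PDIA4 was higher by 0.75 (adjusted p = 0.00681), PDIA3, which folds glycoproteins with calreticulin, by 0.57 (adjusted p = 0.0265) and DNAJB11, a cochaperone of BiP, by 0.30 (adjusted p = 0.0355). PDIA6 was at 0.33 there (adjusted p = 0.0515). CANX, the membrane-bound partner of calreticulin, was at 0.08 (-0.24 to 0.39), and DNAJC3, which binds misfolded protein and inhibits PERK, at -0.38 (-0.80 to 0.03). The called chaperones thus included none of HSPA5, SDF2L1, HYOU1 and MANF, which had log2 fold changes from -0.23 to 0.17.

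By promoter element, 4 of the 6 genes called higher that have a window held an ERSE, against 0 of 3 called lower and 3 of 33 tested and not called. Without sictrl A3 and siUCA1 A1 it was 3 of the 10 called higher that have a window. With median scaling, where 3.46% of all genes were called, none of CALR, CRELD2, HSP90B1 and PDIA6 was. Of the 14 listed ER chaperones and folding enzymes with a window, called or not, 6 held an ERSE (42.9%). DNAJB9, with the highest fold change among the chaperones, held none in its window, and neither did VLDLR. The related element ERSE-II, searched on both strands as ATTGG and CCACG with 1 free base between them, was in the windows of HERPUD1, SDF2L1 and HYOU1 (0.0696% of all genes with a window), whose log2 fold changes were 0.06, -0.16 and 0.17. The unfolded protein response element UPRE, searched as TGACGTGG, was found only in HYOU1, where it overlaps ERSE-II, and in 0.927% of all genes. Of the 8 genes with a CARE, CHAC1, ASNS, SLC7A1, SLC1A5 and CEBPG had values below 0 over the 8 arrays, and PPP1R15B, CREB3L2 and HERPUD1 had values above 0. The 5 called over the 6 arrays were CHAC1, SLC7A1, SLC1A5 and CEBPG as lower and CREB3L2 as higher. These shares describe lists that were chosen as stress genes and have no test.

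**Figure D3:**
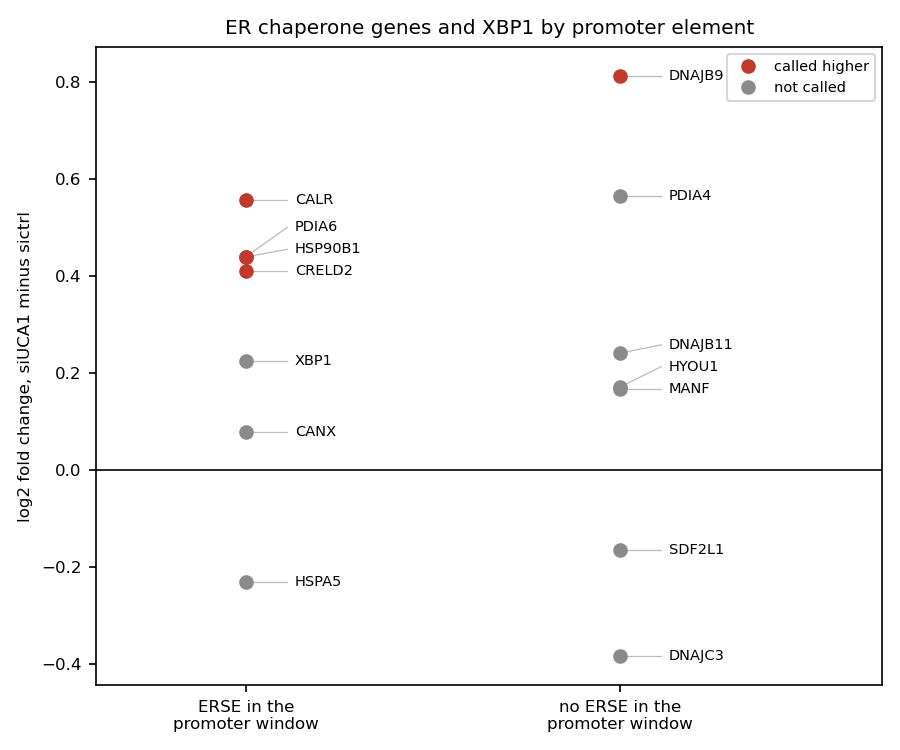
Log2 fold change (vertical axis, siUCA1 minus sictrl) of XBP1 and of the 13 tested ER chaperones and folding enzymes with a promoter window, split by whether the window holds an ERSE. The 4 called genes in the left column lie between 0.41 and 0.56 and HSPA5 in the same column lies at -0.23, and DNAJB9 in the right column lies at 0.81.

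Of the 3 genes of ER-associated degradation, 0 were called by limma, where 11.6% of all genes were. The unadjusted p was under 0.05 for 2 of the 3, as for 4263 of all 15456 genes. EDEM1, which hands misfolded glycoproteins to degradation, was at 0.36 and SEL1L, the scaffold of the HRD1 ubiquitin ligase, at -0.41 (limma, adjusted p = 0.130 and 0.102). Neither of them overlapped between conditions, which held for 20.9% of all genes. HERPUD1, an ER membrane protein of the same machinery, was at 0.06 (-0.31 to 0.43).

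Leaving out the 2 arrays that stood apart kept the sign of the fold change for 44 of the 46 genes, with PHGDH and TRIB3 as the exceptions. Of the 12 called genes, 11 were also called over the 6 arrays and PDIA6 was not, and 11 further genes were called there: ATF6, CREB3L2, DNAJB11, PDIA3, PDIA4 and SLC38A2 as higher, and CEBPG, CHAC1, MTHFD2, SLC1A5 and SLC7A1 as lower. The fold changes of the 12 genes moved least for ATF5 (-0.64 and -0.64) and most for SHMT2 (-0.83 and -0.61) and DDIT4 (-1.05 and -1.25). PHGDH was at -0.35 over 8 arrays and 0.07 over 6 and was not called in either set.

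**Figure D4:**
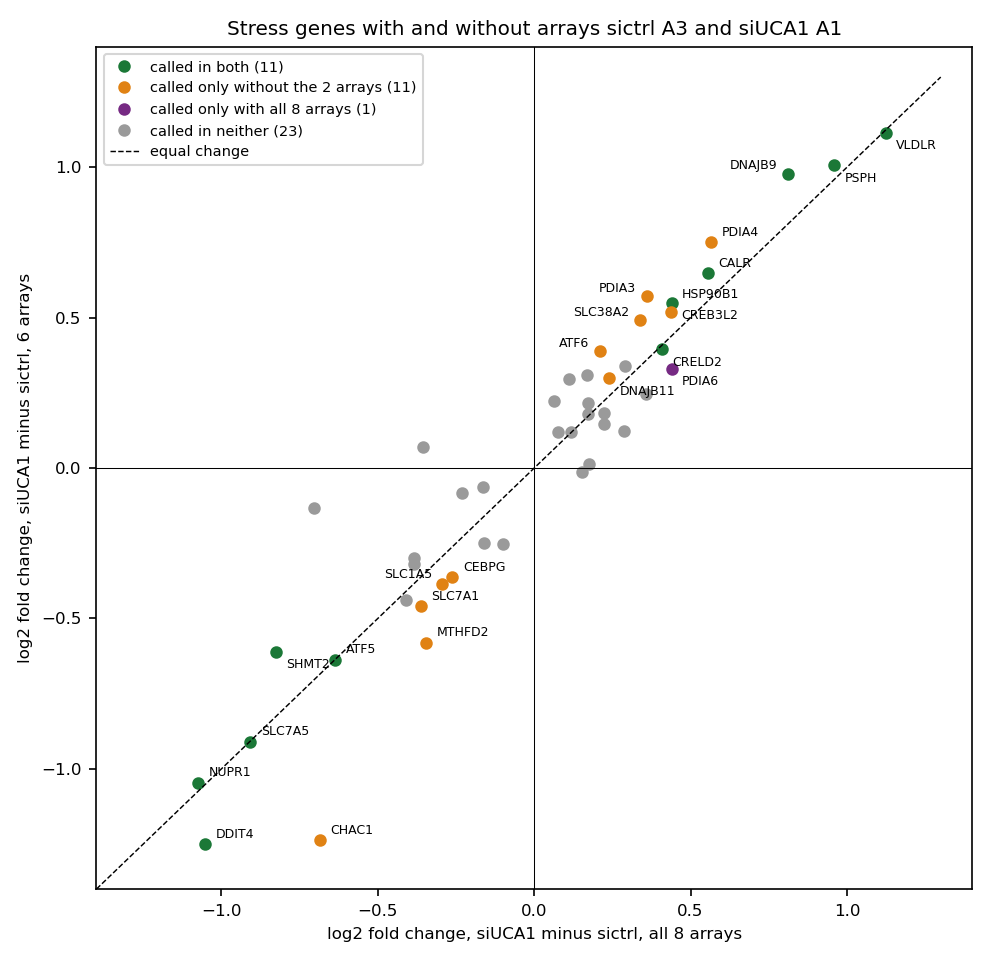
Log2 fold change (siUCA1 minus sictrl) of the 46 genes over all 8 arrays (horizontal axis) and over the 6 arrays without sictrl A3 and siUCA1 A1 (vertical axis), colored by where the gene was called, with equal change as a dashed line. Most points lie near the line, and CHAC1 (-0.68 and -1.24) lies farther from it than any other gene that was called in either set.

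The arrays lay on 1 slide in 2 rows, and each row held 2 arrays of each condition. The 12 called genes had the same direction in both rows, as the absence of overlap fixes. The sizes differed between rows, as for DDIT4 (-0.61 in row 1 and -1.49 in row 2), VLDLR (1.44 and 0.81), PSPH (0.72 and 1.20) and SLC7A5 (-0.69 and -1.12), whereas SHMT2 (-0.82 and -0.83), CRELD2 (0.43 and 0.39) and PDIA6 (0.42 and 0.46) were alike in both. With the row as a block, 9 of the 12 were called (8.22% of all genes), and CALR, HSP90B1 and PDIA6 were not.

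When each of the 8 arrays was left out in turn, ATF5, DNAJB9, NUPR1, PSPH, SHMT2 and SLC7A5 were called every time. VLDLR was called in 6 of the 8 fits, CRELD2 in 4, DDIT4 in 3, CALR and HSP90B1 in 2 each and PDIA6 in 0. With the median of the spots in place of the 75th percentile, 5 genes were called (10.9%, against 3.46% of all genes). They were VLDLR as higher and NUPR1, SLC7A5, DDIT4 and SHMT2 as lower. None of the chaperones was called with that scaling, where 114 of all 15456 genes were called higher and 421 lower. Of the 14 chaperones, 10 had values above 0, and the median log2 fold change of the 14 was 0.20 (-0.07 over all genes).

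Genes of the same pathways outside the list were counted from a second list of 55 genes, of which 52 were tested and 9 were called (17.3%, against 11.6% of all genes), 6 higher and 3 lower. SLC7A11, the cystine importer that ATF4 induces, was higher by 1.02 (limma, adjusted p = 0.0125), and EIF2AK1, the heme-regulated eIF2 kinase HRI, was lower by 0.84 (log2 fold change -0.84, adjusted p = 0.00414). The death genes BCL2L11 and BBC3 were higher by 0.91 and 0.85 (adjusted p = 0.00261 and 0.00726), while TNFRSF10B, the death receptor DR5, was at 0.28 (adjusted p = 0.331) and was called over the 6 arrays, at 0.48 (adjusted p = 0.0326). The study had already reported BCL2L11 and BBC3 as higher from these same arrays, so that their part in the count of 9 was known beforehand. The other called genes were SESN2 at 0.81, TXNDC5 at 0.62, CTH at 0.31, JDP2 at -0.68 and WARS1 at -0.45, of which only SESN2 overlapped between conditions, through siUCA1 A1 at 1.49. When each array was left out in turn, SLC7A11, EIF2AK1, BCL2L11 and BBC3 were called in all 8 fits, TXNDC5, CTH and JDP2 in 2 each and SESN2 and WARS1 in 1 each. For BCL2L11, whose 3 kept probes had log2 fold changes of 0.91, 0.72 and -0.36, the value is that of the brightest probe, and the mean of the probes was higher by 0.43. Of the 12 aminoacyl-tRNA synthetases, a group that ATF4 induces, 10 had values below 0, as did 7087 of all 15456 genes, and 1, WARS1, was called (8.33%, against 11.6% of all genes). A second, dimmer kept probe of SARS1, the seryl-tRNA synthetase, for a noncoding transcript, was lower by 1.37 (log2 fold change -1.37, adjusted p over all probes = 0.00397), where the probe used was at -0.20.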

How the data were processed

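The 8 arrays were one-color Agilent 8x60k arrays of RNA from OAW42-R cells, 4 for sictrl and 4 for siUCA1. The authors deposited the output of Agilent Feature Extraction 10.7.3.1, in which each spot has a linear intensity with the background and a surface trend already removed and no normalization between arrays. The deposited summary of intensity values for the series was identical (largest relative difference 0) and was not used further. From 60901 noncontrol spots per array, outlier spots (76 to 132 per array) were left out, log2 values were taken, the 75th percentile of the array was subtracted and the spots of a probe were averaged. Probes had to be marked as well above background in every array of sictrl or of siUCA1 (19047 of 58201 passed), and the brightest passing probe stood for its gene. Accessions were named through RefSeq for GRCh38.p14, which also gave the promoter windows.

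Conditions were compared over all 15456 genes in R 4.3.3 by the moderated test of limma 3.58.1 (lmFit, eBayes), after reading with version 1.17.8 of data.table, with Benjamini-Hochberg adjusted p under 0.05 as the threshold. Figures were drawn with matplotlib 3.10.9 in Python 3.11.15, and the procedure was tested on simulated data. Named were ATF4, XBP1, DDIT3, HSPA5, every called gene of the list and up to 10 called genes of the second list, and others were chosen for mention after their values were seen. The genes of both lists were chosen with earlier results of these data known. The number of arrays sets the precision, and 20858 to 24039 spots per array were well above background. That the 4 experiments were independent comes from the methods of the study. The alternatives tried concern the scaling, background, detection rule, blocks, probes, variance model and arrays. One marker gene is not reported here.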

Additional observations from a re-analysis of the deposited data

Results flagged for a closer look

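In a comparison of the highest or lowest of 4 arrays with the other 3 of its condition, 14 of 110 sets of values had a gap to the nearest array that was a larger share of the whole range than the critical value of Dixon's test, which chance gives in about 5% of sets. The array in question was siUCA1 A1 in 7 sets, sictrl A3 in 5 and siUCA1 A3 in 2. On sictrl A3 the share of the range was 0.904 for PDIA4, 0.965 for DNAJC3 and 0.856 for SLC38A2, which were all brightest there, and 0.894 for EIF2S1 and 0.876 for TRIB3, which were dimmest there. On siUCA1 A1 it was 0.878 for VLDLR, 0.956 for MTHFD2, 0.97 for DDIT3, 0.86 for EIF2AK1 and 0.945 for WARS1, all brightest on that array, and 0.901 for both EIF2S1 and SESN2, dimmest there. On siUCA1 A3 it was 0.856 for BBC3 and 0.871 for CTH, both brightest. The same 2 arrays, sictrl A3 and siUCA1 A1, had the strongest fitted surface trend, and its part in these values was not tested.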

How the results depend on the processing

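Against 12 stress genes called (7 higher, 5 lower) and 9 genes of the second list, scaling by the median of the spots gave 5 (1 higher, 4 lower) and 2, normexp background correction 5 (2 higher, 3 lower) and 4, array weights 27 (14 higher, 13 lower) and 21, and leaving out sictrl A3 and siUCA1 A1 together 22 (12 higher, 10 lower) and 24. Without a detection filter, limma called 0 genes of either list (0 higher, 0 lower), with 76 of all 47753 genes called (0.159%), and with 15 stress genes and 3764 of all 47753 genes at an unadjusted p under 0.05. With the slide row as a block, 9 were called, of which 4 were higher. The fits without 1 array gave 6 (without sictrl A2) to 17 (without sictrl A3) stress genes, with 2 to 11 higher and 4 to 7 lower, and 4 to 13 genes of the second list. Over all genes the calls numbered 1788 as reported, 535 with median scaling, 380 with normexp, 1270 with the slide row, 1727 with the replicate block, 4802 with array weights, 3957 without the 2 arrays and 764 to 2319 without 1 array. ATF4, XBP1, DDIT3, HSPA5 and the called genes of both lists changed direction in none of their 22 alternatives, and the cause of the lost or gained calls was not tested. The same-named arrays had correlations of their deviations of 0.0384 (A1), 0.278 (M2), 0.216 (A2) and 0.127 (A3), and 2 of 4 sictrl and 3 of 4 siUCA1 arrays correlated best with their own name, so that a pairing by name was not established. With a replicate block, 11 stress genes (6 higher, 5 lower) and 7 of the second list were called, with CALR (adjusted p = 0.0590 in limma) and PDIA6 (adjusted p = 0.0753) lost and PDIA4 gained, and SESN2 (adjusted p = 0.0843) and CTH (adjusted p = 0.0609) lost from the second list. For dim probes, signal near background limits what can be seen.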
